A study of Homo sapiens with 21 samples.

Results

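The genes described here are 10 feedback and output genes of the MAPK (ERK) pathway: the dual-specificity phosphatases DUSP4, DUSP5 and DUSP6, the Sprouty genes SPRY2 and SPRY4, the SPRED genes SPRED1 and SPRED2, the transcription factors ETV4 and ETV5, and PHLDA1. They were chosen by name, found in the expression table by their symbols, and make up 10 of its 26475 genes. SK-MEL-147 is a cell line from a human melanoma, known to carry an activating NRAS mutation, and its RNA was sequenced. The 21 libraries formed 7 groups of 3: cells given JQ-1, which binds the BET bromodomain proteins, MS023, an inhibitor of type I protein arginine methyltransferases, GSK-591, an inhibitor of the arginine methyltransferase PRMT5, TP-472, which binds the bromodomains of BRD9 and BRD7, UNC0642, an inhibitor of the histone methyltransferases EHMT1 and EHMT2, GSK-484, an inhibitor of the arginine deiminase PADI4, and untreated cells. All groups are the same cell line, and the sources used here do not give doses, times or any vehicle. The study asked how gene expression in this line differs under compounds that act on chromatin and on arginine modification.

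In the MAPK pathway, RAS activates RAF kinases, RAF activates MEK, and MEK activates ERK, which then turns on genes that limit the pathway itself. DUSP proteins remove phosphate from MAP kinases, DUSP4 and DUSP5 in the nucleus and DUSP6 in the cytoplasm. Sprouty and SPRED proteins act further up, at the level of RAS and RAF, and SPRED proteins bring the RAS inhibitor neurofibromin to the membrane. ETV4 and ETV5 are ETS transcription factors of the PEA3 group. PHLDA1 encodes a protein with a pleckstrin homology domain. In melanoma, where NRAS or BRAF is often mutated, transcript levels of such genes are used as a readout of pathway output.

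The libraries held between 20978182 and 78776788 expected counts, and all 10 genes passed the filter on low counts. Levels are CPM, expected counts relative to the library total after TMM scaling, with group means as mean ± SD (n = 3), and a gene was called where the edgeR quasi-likelihood test gave a Benjamini-Hochberg adjusted p under 0.05 over all 15062 genes tested. Nothing in the labels ties the replicates to separate cultures, so the p-values cover no more than the spread seen among these libraries, part or all of which may be technical. JQ-1 libraries stood apart, at 94.9 to 95.6 on the first principal component (57.4% of the variance) against -17.3 to -12.8 for the other 18. The untreated libraries differed from the treated ones in base composition: the slope of log2 CPM on transcript GC content, per 10 percentage points, averaged -0.286 (SD 0.0388, n = 18) in treated and -0.437 (SD 0.0414, n = 3) in untreated libraries. Each compound was therefore also set against GSK-484, the treated group with the fewest genes called once the GC trend was removed (0.79% of all genes), and against untreated cells with the GC trend of each library removed. Among melanocyte lineage markers, SOX10 (349 to 603 CPM) and MITF (9.24 to 19 CPM) were present in every library, while PMEL, MLANA, TYR, DCT and S100B stayed under 1 CPM throughout. AXL, NGFR, EGFR, SOX9 and CD44, markers of dedifferentiated melanoma, were present. The summed levels of the 7 melanocyte lineage markers, nearly all of it SOX10, were 609 to 622 CPM in JQ-1 libraries, 384 to 489 CPM with the other compounds and 363 to 384 CPM in untreated libraries. The sums of the 5 dedifferentiated markers, most of it AXL and CD44, were 3870 to 3910 CPM in JQ-1 libraries. They were 3240 to 3610 CPM with the other compounds and 3390 to 3410 CPM in untreated libraries. The markers did not all move alike: NGFR, at 112 to 122 CPM in untreated libraries, reached 306 CPM in the highest library. SOX9, at 36.7 to 39.9 CPM in untreated libraries, went down to 20 CPM in the lowest. The part of either list in the results was not tested. Markers of leukocytes, endothelium and epithelium summed to at most 2.14 CPM per list in any library, and those of fibroblasts to 5.56 to 10.1 CPM. In bulk RNA, fewer cells expressing a gene and less RNA per cell cannot be told apart.

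RefSeq promoter windows (build GRCh38.p14) were at hand for 6 of the 10 genes. The bases before the start sites of the Sprouty genes are shown because both genes fell with JQ-1, SPRY4 by 44.8% and SPRY2 by 12.5% against untreated cells, and both windows hold the core TGACG, which is bound by CREB and ATF factors. Both run 5′ to 3′ on the minus strand for 250 bases, and capitals mark the core.
SPRY4: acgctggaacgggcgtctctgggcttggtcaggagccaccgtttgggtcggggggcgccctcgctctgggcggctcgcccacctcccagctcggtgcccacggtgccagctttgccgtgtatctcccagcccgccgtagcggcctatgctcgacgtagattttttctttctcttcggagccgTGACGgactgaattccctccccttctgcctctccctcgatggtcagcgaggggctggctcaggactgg
SPRY2: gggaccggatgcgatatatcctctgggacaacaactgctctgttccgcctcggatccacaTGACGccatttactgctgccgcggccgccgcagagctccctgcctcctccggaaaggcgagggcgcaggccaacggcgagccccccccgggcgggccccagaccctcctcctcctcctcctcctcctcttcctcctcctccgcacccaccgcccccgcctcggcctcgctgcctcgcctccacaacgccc
The windows are chr5:142324248-142324497 for SPRY4 and chr13:80341127-80341376 for SPRY2. The core lay 68 bases before the SPRY4 start and 190 bases before that of SPRY2, whose other RefSeq starts held none. SPRY4 is at chr5:142310427-142326455 and SPRY2 at chr13:80335976-80340951 in hg38 (GENCODE 29). Over windows of 300 bases that also take in the 50 bases after the start, both strands were searched for the ETS core CGGAAG, for the AP-1 site TGANTCA, for the CArG box and for TGACG. The 6 genes had 9 such windows. ETS cores lay in 3 of them, of DUSP6, SPRED2 and PHLDA1, TGACG in 3, of SPRY2, SPRY4 and SPRED2, an AP-1 site in 1, of SPRED2, and a CArG box in 0. Of 35114 RefSeq promoters of that length, 19.5% held the ETS core, 24.6% TGACG, 7.71% the AP-1 site and 1.29% a CArG box. SPRED2 also fell with JQ-1 and held TGACG, while SPRED1 and PHLDA1 fell and held none, and ETV4 and ETV5 fell and had no window. A match is a description of the letters and not of binding, and a link between the core and the falls was not tested.

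In untreated cells the 10 genes spanned a wide range. Per kilobase of the longest transcript, PHLDA1 was highest at 104 CPM per kb (the 96.9th percentile of the genes tested), followed by SPRY2 at 59.2, DUSP5 at 39.7, DUSP4 at 29.5 and ETV5 at 27.4 CPM per kb. The lower 5 were ETV4 at 21.3, SPRED2 at 16.5, DUSP6 at 15.5, SPRED1 at 12.8 and SPRY4 at 9.69 CPM per kb, the last at the 63.1th percentile. Each gene was expressed above the median gene of this line.

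With JQ-1 most of the set was lower: 7 of the 10 genes fell, 2 rose and DUSP6 did not pass the test against untreated cells. Over all genes tested, 73.3% were called with JQ-1 (37.6% lower, 35.7% higher), so a high share of calls is common to the whole transcriptome. The median log2 fold change of the 10 genes was -0.36, against -0.0064 for all genes tested. For the 7 genes that fell, every JQ-1 library lay below all 18 other libraries, and for DUSP4 and DUSP5 every JQ-1 library lay above them. The share of all genes tested that separate in this way was not counted, so the separation is not shown to be particular to this set. Replacing the untreated cells by GSK-484 as the reference gave 10 calls, 3 higher and 7 lower, beside 71.8% of all genes (34.6% higher, 37.2% lower), and so did removing the GC trend, beside 74.5% of all genes.

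**Figure D1:**
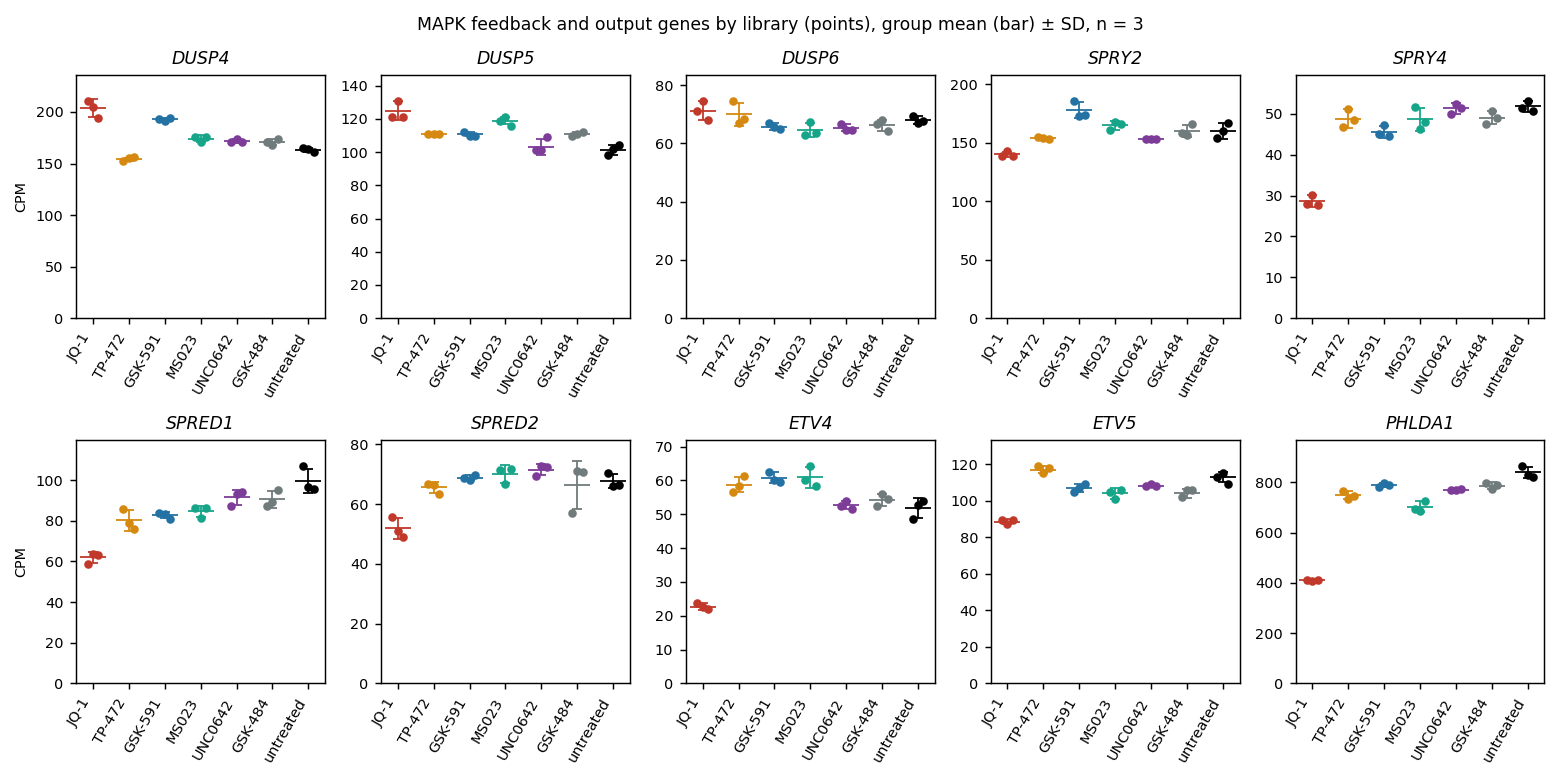
Level of each of the 10 genes in each library, in CPM, by group, with untreated cells at the right. Points are libraries, and bars the group mean and SD of 3 libraries. The JQ-1 libraries lie below all others for SPRY2, SPRY4, SPRED1, SPRED2, ETV4, ETV5 and PHLDA1, above all others for DUSP4 and DUSP5, and among them for DUSP6.

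The largest fall was in ETV4, an ETS factor of the PEA3 group (chr17:43527844-43579620 in hg38, GENCODE 29). ETV4 had 23.8, 22.5 and 21.9 CPM in the JQ-1 libraries, against 48.5, 52.9 and 54 CPM in the untreated ones. The groups were far apart, and the log2 fold change was -1.18 (SE 0.052, edgeR adjusted p = 1.86e-15). ETV5, the other PEA3 factor of the set (chr3:186046308-186110318), fell less. It had 89.3, 87 and 89.3 CPM with JQ-1 and 113, 115 and 109 CPM in untreated cells, a log2 fold change of -0.35 (SE 0.033, edgeR adjusted p = 2.37e-09). The 95% interval of the fold change was -1.29 to -1.08 for ETV4 and -0.42 to -0.28 for ETV5. ETV1, the PEA3 member that was not in the set, was also lower with JQ-1, at 19.7 ± 0.927 CPM against 39.9 ± 1.01 CPM in untreated cells (log2 fold change -1.02, edgeR adjusted p = 3.21e-13); it was picked for its kinship after its value was seen.

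PHLDA1 (chr12:76025447-76033932) had the highest CPM of the set. It had 413, 406 and 412 CPM in the JQ-1 libraries, against 865, 830 and 822 CPM in the untreated ones. Its level with JQ-1 was thus 48.9% of that in untreated cells (log2 fold change -1.03, SE 0.031, edgeR adjusted p = 1.94e-18). Antisense genes cover 6.85% and 9.65% of its exon bases, and the sources used here do not say whether the authors' counting used strand.

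The Sprouty genes, whose products restrain RAS signalling, both fell. SPRY4 had 27.9, 30.2 and 27.6 CPM with JQ-1 and 51.5, 53.2 and 50.7 CPM in untreated cells (log2 fold change -0.86, SE 0.050, edgeR adjusted p = 3.58e-13). SPRY2 had 139, 143 and 139 CPM with JQ-1 and 154, 160 and 167 CPM in untreated cells, a small fall (log2 fold change -0.19, SE 0.036, edgeR adjusted p = 4.71e-05). For SPRY2 the fall after removal of the GC trend was -0.11 (edgeR adjusted p = 0.00669), and under total-count scaling -0.34. SPRY4 with JQ-1 stood at 55.1% and SPRY2 at 87.5% of the untreated level.

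The SPRED genes moved in the same direction. SPRED1 (chr15:38252326-38357249) had 58.7, 63.9 and 63.3 CPM in JQ-1 libraries, against 107, 96.7 and 95.6 CPM in untreated ones (log2 fold change -0.69, SE 0.052, edgeR adjusted p = 4.34e-11). After removal of the GC trend the value was -0.45 (edgeR adjusted p = 4.7e-10). Its expected counts were fractional in 20 of the 21 libraries, as they are where reads match more than 1 place, so its level is less certain. SPRED2 (chr2:65310851-65432637) had 55.8, 51.1 and 48.9 CPM with JQ-1 and 70.5, 66.2 and 66.3 CPM in untreated cells (log2 fold change -0.38, SE 0.064, edgeR adjusted p = 1.16e-05).

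None of the 3 phosphatases was called lower with JQ-1. DUSP4, a nuclear phosphatase (chr8:29333064-29350668), had 211, 205 and 194 CPM in the JQ-1 libraries, against 165, 164 and 161 CPM in untreated ones (log2 fold change 0.32, SE 0.032, edgeR adjusted p = 5.29e-09). DUSP5, also nuclear (chr10:110497838-110511544), had 121, 131 and 121 CPM with JQ-1 and 98.1, 102 and 104 CPM in untreated cells (log2 fold change 0.30, SE 0.038, edgeR adjusted p = 2.33e-07). Their rises were 24.8% and 22.9%, and no JQ-1 library overlapped an untreated one. Under total-count scaling the log2 fold changes against untreated cells were smaller, 0.18 for DUSP4 (edgeR adjusted p = 0.000327) and 0.15 for DUSP5 (edgeR adjusted p = 0.00244). Against GSK-484, that scaling gave 0.14 in place of 0.25 for DUSP4, and 0.055 in place of 0.17 for DUSP5, which was then not called (edgeR adjusted p = 0.251). DUSP6, the cytoplasmic ERK phosphatase often taken as a readout of ERK activity (chr12:89347232-89353271), had 71, 74.7 and 68.2 CPM with JQ-1 and 69.4, 66.9 and 67.6 CPM in untreated cells. The groups overlapped, and the log2 fold change of 0.069 (SE 0.044, 95% interval -0.021 to 0.16) had an edgeR adjusted p of 0.158. Under TMM scaling the interval runs from a fall of 0.021 to a rise of 0.16 on the log2 scale. It does not cover the choice of scaling or of GC removal, and values under those choices lay outside it. DUSP6 was called higher with the GC trend removed (0.17, edgeR adjusted p = 0.00156) and against GSK-484 (0.11, edgeR adjusted p = 0.0337, not called without JQ-1 replicate 1, JQ-1 replicate 2 or GSK-484 replicate 3, at adjusted p of 0.0581 without the first of these), and its value under total-count scaling was -0.074 against untreated cells and -0.006 against GSK-484. That scaling gave a median of -0.15 over all genes with JQ-1 against untreated cells, against -0.0064 with TMM. An antisense gene covers 40.5% of the exon bases of DUSP6, and its reads cannot be told apart from those of DUSP6 without strand.

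**Figure D2:**
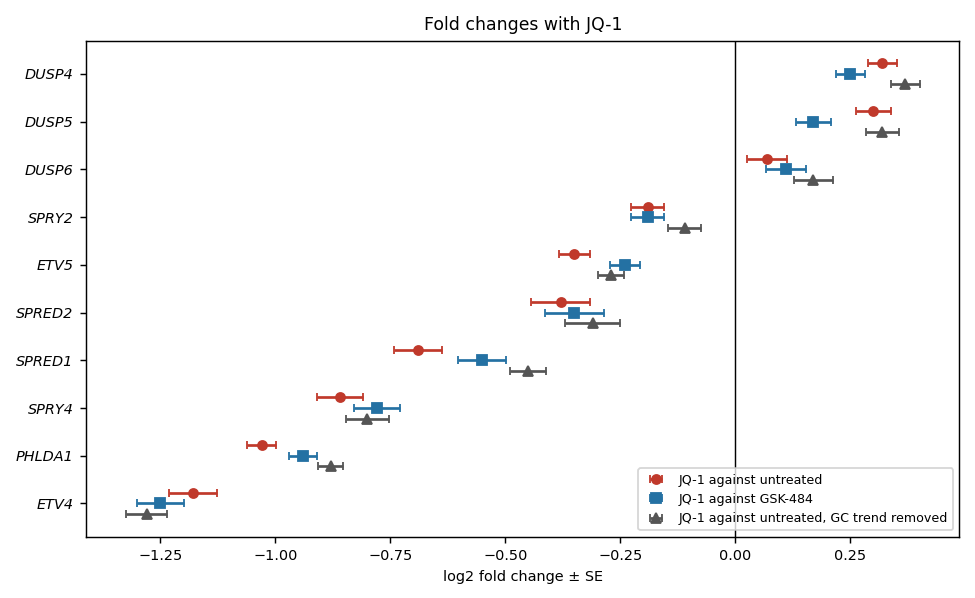
Log2 fold change of each of the 10 genes with JQ-1 against untreated cells, against GSK-484 and against untreated cells with the GC trend removed, as points with bars of 1 SE. The falls of ETV4, PHLDA1 and SPRY4 are the largest at -1.18, -1.03 and -0.86 against untreated cells, and DUSP6 lies near 0.

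The other genes of the pathway were taken from 3 lists, and in each list some genes rose and others fell with JQ-1. Of 20 core genes from RAS and its adaptors to ERK and the RSK kinases, 8 rose, 7 fell and 5 did not pass, with a median log2 fold change of 0.015. Over all genes tested, 35.7% were called higher and 37.6% lower with JQ-1, so such a mix is common to the whole transcriptome. NRAS, the RAS gene known to be mutated in this line, fell to 54.7 ± 2.36 CPM with JQ-1, against 102 ± 5.69 CPM in untreated cells (log2 fold change -0.90, edgeR adjusted p = 6.65e-14). ARAF, a RAF kinase, rose to 61.5 ± 0.932 CPM against 30.7 ± 0.141 CPM (log2 fold change 1.0, edgeR adjusted p = 3.55e-15), and MAPK3, which encodes ERK1, fell to 20 ± 0.234 CPM against 37 ± 3.78 CPM (-0.89, edgeR adjusted p = 2.26e-11).

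Of the other 18 negative regulators, 16 were tested. With JQ-1, 5 rose, 7 fell and 4 did not pass (median -0.10), beside 73.3% of all genes called. DUSP2 and DUSP9 had highest counts of 0 and 1 and were not tested. DUSP10, a phosphatase that acts mainly on the JNK and p38 kinases, rose to 400 ± 8.68 CPM against 208 ± 5.55 CPM in untreated cells (log2 fold change 0.95, edgeR adjusted p = 3e-17). DUSP16, which acts on JNK, fell to 29.8 ± 0.525 CPM against 59.3 ± 2 CPM (-0.99, edgeR adjusted p = 1.29e-15), and SPRED3, the third SPRED gene, to 11.5 ± 0.824 CPM against 21.9 ± 1.65 CPM (-0.93, edgeR adjusted p = 1.58e-11).

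Of 15 other output genes, 14 were tested, while EREG had too few counts, 6 at most. With JQ-1, 5 rose, 8 fell and 1 did not pass (median -0.16), beside 73.3% of all genes called. MYC, a growth-promoting transcription factor, rose to 124 ± 1.34 CPM against 39.1 ± 1.81 CPM (log2 fold change 1.66, edgeR adjusted p = 3.17e-18). The immediate early gene EGR1 rose to 6.78 ± 0.678 CPM against 2.55 ± 0.222 CPM (1.41, edgeR adjusted p = 2.91e-07). EGR3, a related factor, had only 6 counts in the JQ-1 libraries and 26 in the untreated ones (-1.74, edgeR adjusted p = 0.0112), and its call was lost without untreated replicate 1 (-1.10, edgeR adjusted p = 0.155).

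**Figure D3:**
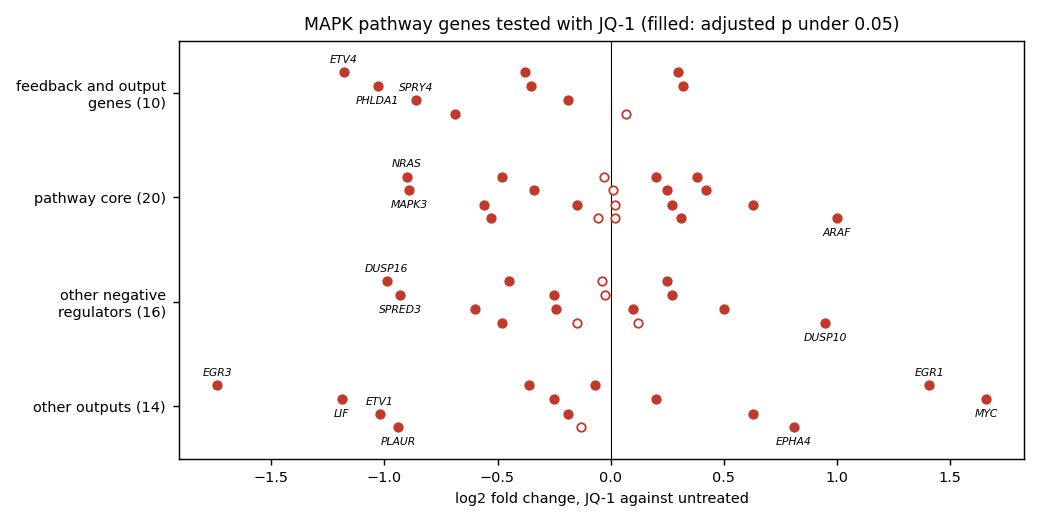
Log2 fold change with JQ-1 against untreated cells for each tested gene of the set and of the 3 other MAPK lists. Each point is a gene, filled where called; the core list is spread on both sides of 0 with 8 higher and 7 lower, while 7 of the 10 feedback and output genes lie below 0.

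The 5 other compounds changed these genes little, with log2 fold changes between -0.31 and 0.24 against untreated cells. MS023 had 6 of the genes called (3 higher and 3 lower, beside 42.6% of all genes) and GSK-591 had 7 (4 higher and 3 lower, beside 32.9%). TP-472 had 4 (2 higher and 2 lower, beside 31.8%), UNC0642 had 1, lower (beside 16.3%), and GSK-484 had 3 (1 higher and 2 lower, beside 19.1%). These comparisons share the untreated libraries, and with the GC trend removed the calls numbered 2 for MS023 (beside 16.9% of all genes), 3 for GSK-591 (13.2%), 3 for TP-472 (11.6%), 0 for UNC0642 (3.19%) and 0 for GSK-484 (0.79%). Against GSK-484, 2 genes were called with MS023 (beside 12.5% of all genes), 2 with GSK-591 (2.65%), 2 with TP-472 (2.06%) and 0 with UNC0642 (4.57%), where 1 gene had an unadjusted p under 0.05 and DESeq2 called none. A call in the same direction in all 3 comparisons was found for 2 genes with GSK-591, 1 with MS023 and 0 with TP-472 and UNC0642. The 3 comparisons use the same compound libraries and are not independent. The share of all genes called in all 3 was not counted.

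With GSK-591, the 2 genes were DUSP4 and SPRY2. DUSP4 had 193, 191 and 194 CPM in the GSK-591 libraries, against 165, 164 and 161 CPM in untreated and 171, 168 and 174 CPM in GSK-484 libraries. This rise was 0.24 (SE 0.032, edgeR adjusted p = 2.21e-05) against untreated cells and 0.17 (edgeR adjusted p = 0.00572) against GSK-484, on the log2 scale. SPRY2 had 186, 173 and 174 CPM with GSK-591, against 154, 160 and 167 CPM in untreated and 158, 157 and 166 CPM in GSK-484 libraries. Its rise of 0.15 against untreated cells (SE 0.036, edgeR adjusted p = 0.00298) was opposite in direction to its fall with JQ-1, and was not called under total-count scaling (0.085, edgeR adjusted p = 0.152). That scaling also ended the calls against GSK-484, at edgeR adjusted p of 0.0691 for DUSP4 and 0.195 for SPRY2. For SPRY2 the call against GSK-484 (0.15, edgeR adjusted p = 0.0294) was also lost in 5 of the 6 fits that left out 1 library and held without GSK-484 replicate 3. SPRY4 was lower with GSK-591, at 45.1, 47.3 and 44.6 CPM against 51.5, 53.2 and 50.7 CPM in untreated cells (-0.19, edgeR adjusted p = 0.00587), and not called against GSK-484.

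With MS023, PHLDA1 was the gene called throughout. It had 695, 685 and 727 CPM with MS023, against 865, 830 and 822 CPM in untreated and 798, 772 and 791 CPM in GSK-484 libraries. The fall was -0.26 (SE 0.031, edgeR adjusted p = 1.6e-06) against untreated cells and -0.16 (edgeR adjusted p = 0.00145) against GSK-484. Each MS023 library lay below every library of both groups, and how common this is over all genes was not counted. The call against GSK-484 was lost when only the 2 groups were fitted (edgeR adjusted p = 0.0633). ETV4 stood at 60.1, 64.3 and 58.3 CPM with MS023, against 48.5, 52.9 and 54 CPM in untreated cells (0.24, edgeR adjusted p = 0.000386). With the GC trend removed that value was -0.027 and was not called. Against GSK-484 ETV4 was called higher (0.17, edgeR adjusted p = 0.0248). That call was lost with the GC trend removed (0.084, edgeR adjusted p = 0.224) and in 3 of the 6 fits that left out 1 library. 

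With TP-472, DUSP4 had 152, 155 and 156 CPM, against 171, 168 and 174 CPM with GSK-484 (log2 fold change -0.15, edgeR adjusted p = 0.017). This call was lost without GSK-484 replicate 3 (edgeR adjusted p = 0.0867) and without each TP-472 library in turn (0.0599 to 0.0769). Against untreated cells DUSP4 was not called (-0.079, edgeR adjusted p = 0.063), but was with the GC trend removed (-0.13, edgeR adjusted p = 0.00871). ETV5 had 119, 115 and 118 CPM with TP-472, against 102, 106 and 106 CPM with GSK-484 (0.17, edgeR adjusted p = 0.00817, and 0.0533 without TP-472 replicate 3). SPRED1 had 85.8, 79 and 75.8 CPM with TP-472, against 107, 96.7 and 95.6 CPM in untreated cells (-0.31, edgeR adjusted p = 0.000157). Against GSK-484 SPRED1 was not called (-0.18, edgeR adjusted p = 0.0782), but was once the GC trend was removed (-0.15, edgeR adjusted p = 0.0382). For SPRED1 and PHLDA1 the untreated libraries lay above all 15 libraries of the compounds other than JQ-1. The share of all genes tested for which untreated libraries separate in this way was not counted. Against untreated cells with the GC trend removed, SPRED1 stood at -0.17 with TP-472 (edgeR adjusted p = 0.00587). With the other compounds but JQ-1 it was not called, at -0.11 with GSK-591, -0.034 with MS023, -0.023 with UNC0642 and -0.026 with GSK-484. PHLDA1 stood at -0.16 with MS023 and -0.10 with TP-472, both called, and at -0.02 with GSK-591, -0.092 with UNC0642 and -0.048 with GSK-484, which were not. DUSP6 was called with none of these 5 compounds against untreated cells.

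Of the 3 other lists, the core genes had 6 called higher and 9 lower under MS023 against untreated cells, 7 higher and 8 lower under GSK-591, 6 higher and 8 lower under TP-472, 3 higher and 2 lower under UNC0642, and 2 higher and 7 lower under GSK-484, out of 20 tested. Of all genes tested, 42.6% were called with MS023, 32.9% with GSK-591, 31.8% with TP-472, 16.3% with UNC0642 and 19.1% with GSK-484. Against GSK-484 the same 20 genes had 3 higher and 1 lower with MS023, 1 higher with GSK-591, 2 higher with UNC0642 and none called with TP-472, beside 12.5% of all genes with MS023, 2.65% with GSK-591, 4.57% with UNC0642 and 2.06% with TP-472. The other negative regulators against GSK-484 had 2 higher with MS023, 1 with GSK-591, 2 with UNC0642 and none with TP-472, out of 16 tested. The other outputs had 3 higher and 1 lower with MS023, 1 higher with GSK-591, 1 higher with TP-472 and none with UNC0642, out of 14 tested. The 3 called genes of largest change per list and compound made up 42 pairs, with log2 fold changes of -0.74 to 0.47 against untreated cells. Of these, 9 were called in the same direction with the GC trend removed. The share of all called genes that kept their call was not counted, so the 9 is not shown to be particular to these lists.

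**Figure D4:**
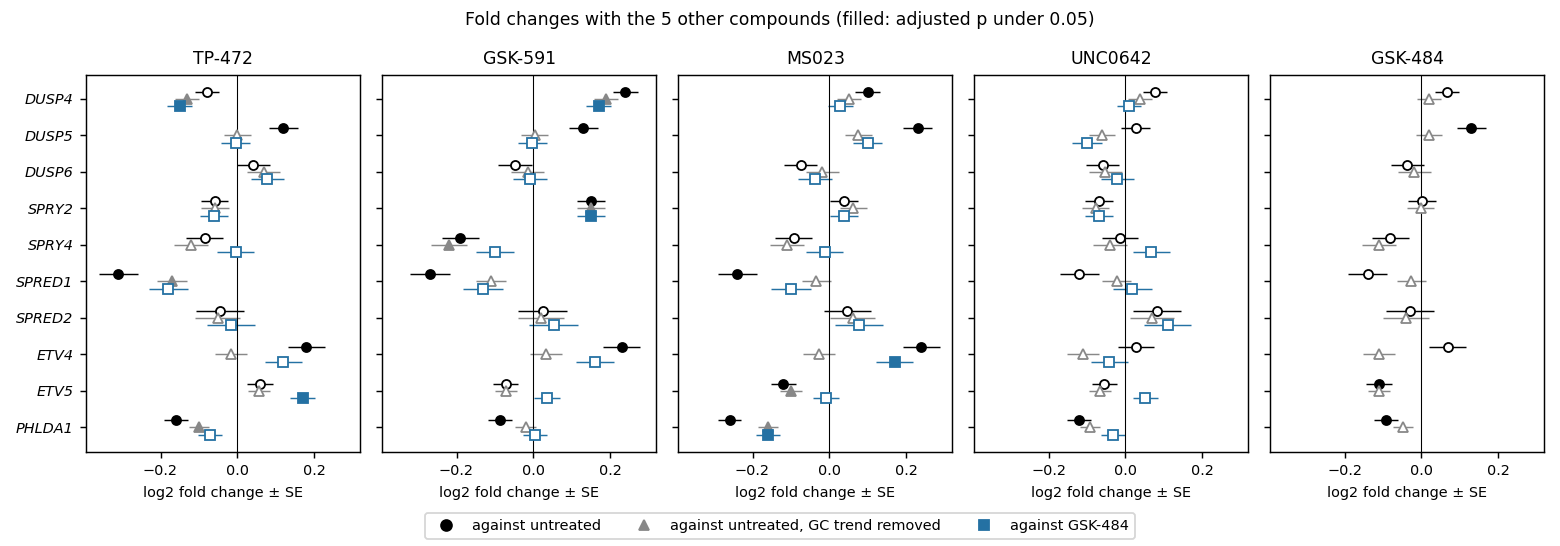
Log2 fold change of the 10 genes with each of the compounds other than JQ-1, as points with bars of 1 SE and filled where called, against untreated cells, with the GC trend removed, and against GSK-484. Values against untreated cells lie between -0.31 and 0.24, a smaller span than the -1.18 to 0.32 seen with JQ-1.

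The order of the groups differed among the 10 genes. JQ-1 was the lowest group for SPRY2, SPRY4, SPRED1, SPRED2, ETV4, ETV5 and PHLDA1 and did not overlap the next group for any of them. How common this is over all genes was not counted. For DUSP6 each group overlapped its neighbour in the order of means, which was 71.3 CPM with JQ-1 at the top and 64.6 CPM with MS023 at the bottom. Over the 21 libraries, the 45 pairs of the 10 genes had Pearson correlations of -0.814 to 0.949, with a median of 0.267 and 24 positive. Over the 18 libraries without JQ-1 they had -0.826 to 0.769, with a median of -0.047 and 20 positive. The pair ETV4 and PHLDA1, which is not typical of the 45, had 0.917 and -0.678. These are descriptions over libraries that share one scaling. The genes whose pattern over the 21 libraries was most like that of PHLDA1 were B3GNT5 (Pearson r 0.994), ADGRL4 (0.993) and TYW3 (0.993), those most like SPRY4 were DCLRE1A (0.987), IPO8 (0.986) and ERAP1 (0.985), and those most like DUSP6 were RMI1 (0.771), ORC5 (0.766) and CORO1A (0.745), among 11504 genes with at least 3 CPM. Over the 18 libraries without JQ-1 these values were 0.867 to 0.88 for PHLDA1, 0.768 to 0.85 for SPRY4 and 0.632 to 0.783 for DUSP6. They carry no test.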

How the data were processed

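Expected counts per gene were deposited by the authors, from RSEM 1.2.15 with Bowtie2 2.1.0 and build hg38, per the submitters' processing notes; the sources used here do not give the annotation, strand use or filters. Here they were rounded, scaled by TMM in edgeR 4.0.16 after its filterByExpr step (at least 10 counts, total at least 15), and all 21 libraries were fitted with group as the only term (two-sided quasi-likelihood test). GC content came from the longest GENCODE 29 transcript, for 14578 of 15062 genes tested (96.8%), and its trend was removed by loess (span 0.3, 4 iterations). Fold changes use a prior count of 0.125. All 10 genes are named; from the other lists, the 3 called genes with the largest change per compound, and those of the other 5 compounds are given as counts only. One gene of these lists enters the counts, and its own values are not reported here. The genes, lists and alternatives were chosen with earlier results of these data known. Group means and SDs cover 3 libraries each. Between replicates of a group 0 of 21 pairs were identical, and the common coefficient of variation was 5.09%. The script was tested on simulated data. Alternatives were DESeq2 1.42.0, RLE and total-count scaling, no filter, a replicate block, 2 groups alone, GC removal, a 1.5-fold threshold, the treated groups but JQ-1 as reference, and leaving out each library. R 4.3.3 and Python 3.11.15 were used.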

Additional observations from a re-analysis of the deposited data

How the results depend on the processing

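With JQ-1, the same 7 genes lay lower and DUSP4 and DUSP5 higher than untreated cells under removal of the GC trend and with GSK-484 as the reference; without each library in turn 9 genes were called against untreated cells and 9 to 10 against GSK-484. With a 1.5-fold threshold, 4 genes were called with JQ-1 against untreated cells (4062 of all genes called) and 3 against GSK-484 (3769). That threshold called 0 of the set with TP-472, GSK-591, GSK-484, MS023 and UNC0642. Of all genes it called only 2, 2, 2, 8 and 0 with these compounds, in that order, against untreated cells. The 0 is therefore not particular to this set. Numbers of genes called with the other compounds changed more, and the cause was not tested. With the GC trend removed they were 3 with GSK-591 (1985 of all genes called), 2 with MS023 (2543), 0 with GSK-484 (119) and 0 with UNC0642 (481) against untreated cells. Against GSK-484 the number was 1 with MS023 (1305 of all genes called). With the remaining treated groups but JQ-1 as reference they were 2 with TP-472 (1296 of all genes called), 2 with GSK-591 (1136), 0 with GSK-484 (19), 3 with MS023 (2840) and 4 with UNC0642 (4145, against 2448 with untreated cells as reference). Fitting only the groups compared leaves fewer samples to set the spread. Against untreated cells the numbers were then 0 with GSK-484 (9 of all genes called) and 0 with UNC0642 (1538). Against GSK-484 they were 0 with TP-472 (58 of all genes called), 0 with GSK-591 (0) and 0 with MS023 (433). Total-count scaling against GSK-484 gave 1 with TP-472 (214 of all genes called), 0 with GSK-591 (283) and 1 with MS023 (1540). No filter on low counts gave 1 with GSK-591 against GSK-484 (319 of all genes called).

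Leaving out each library in turn gave 2 to 4 genes with TP-472 (2 without untreated replicate 1), 0 to 4 with GSK-484 (0 without untreated replicate 1, 1 without untreated replicate 2), 0 to 1 with UNC0642 (0 without untreated replicate 1), 5 to 8 with GSK-591 and 5 to 6 with MS023 against untreated cells. Calls over all genes fell too: without untreated replicate 1 they numbered 2789 with TP-472, 924 with GSK-484 and 2026 with UNC0642. With all libraries these were 4788, 2872 and 2448. Without untreated replicate 2, 2805 of all genes were called with GSK-484. Against GSK-484 it gave 0 to 3 with TP-472 (0 without TP-472 replicate 3, 1 without TP-472 replicate 2 or GSK-484 replicate 3), 1 to 2 with GSK-591 (2 only without GSK-484 replicate 3), 1 to 2 with MS023 (1 without GSK-484 replicate 1 or 3 or MS023 replicate 2) and 0 with UNC0642. Of all genes, these TP-472 fits called 79, 108 and 155 in that order, against 311 with all libraries. The GSK-591 fits that gave 1 called 108 to 361 of all genes, against 399. Those of MS023 that gave 1 called 2223, 956 and 741 in the order named, against 1877. Replicate numbers did not pair the libraries: deviations of same-numbered libraries had a mean correlation of -0.00524 over 63 pairs, and 4 of 21 libraries were closest to their own number. With the replicate block the genes of the set called against untreated cells numbered 9 with JQ-1, 6 with MS023, 7 with GSK-591, 4 with TP-472, 1 with UNC0642 and 3 with GSK-484, and against GSK-484 10, 2, 2, 2 and 0 with the first 5 of these. How many of all genes were called with the block is not given here.

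The log2 fold change changed sign in 46 of the refits, covering 26 of 85 pairs of gene and comparison, and in 0 of them was it called with both signs. In 9 of the 46 the main value was called, and in 3 the value of the new sign was. Those 3 were DUSP5, ETV4 and SPRED1 with UNC0642 against the other treated groups. With the GC trend removed the sign changed for DUSP5 with TP-472 (-0.00049) and UNC0642 (-0.06), ETV4 with GSK-484 (-0.11), MS023 (-0.027), TP-472 (-0.017) and UNC0642 (-0.11), and SPRY2 with GSK-484 (-0.002). SPRY2 with GSK-484 was also negative with DESeq2 (-0.0027), RLE scaling (-0.0029), no filter (-0.014) and only the groups compared (-0.0093). With the other treated groups as the reference, values turned for DUSP4 with GSK-484 (-0.016) and UNC0642 (-0.0043), DUSP5 with GSK-591 (-0.0013), TP-472 (-0.0024) and UNC0642 (-0.12), ETV4 with GSK-484 (-0.10) and UNC0642 (-0.15), ETV5 with UNC0642 (0.0039), PHLDA1 with GSK-484 (0.066), GSK-591 (0.072) and UNC0642 (0.025), SPRED1 with GSK-484 (0.10) and UNC0642 (0.12), SPRY2 with GSK-484 (-0.014), and SPRY4 with GSK-484 (0.013), TP-472 (0.0085) and UNC0642 (0.10). Under total-count scaling they turned for DUSP6 with JQ-1 against untreated cells (-0.074) and against GSK-484 (-0.006), DUSP5 (-0.01) and ETV4 (-0.0097) with UNC0642, SPRED2 with GSK-591 (-0.039) and MS023 (-0.0037), and SPRY2 with GSK-484 (-0.029) and MS023 (-0.013). With 1 library left out at a time, the values lay from -0.0053 to 0.052 for DUSP5, -0.011 to 0.062 for ETV4 and -0.026 to 0.012 for SPRY4 with UNC0642, from -0.0034 to 0.071 for DUSP6 with TP-472, and from -0.083 to 0.067 for SPRED2 and -0.025 to 0.028 for SPRY2 with GSK-484.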
